A study of Drosophila melanogaster with 4 samples.

Results

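Translation initiation factors (eIF) and elongation factors (eEF) were followed in the negative fractions of sorted Drosophila melanogaster embryo cell cultures. The members are the probe sets whose gene symbol in the array's probe-gene table begins with eIF or eEF and a digit. This rule uses names and no measured value. It found 47 probe sets of 41 genes among the 14010 probe sets of the array, and each of the 47 names a single gene. No array control counts among them, although 3 control probe sets lie along the transcript of eIF-4a, the older name of eIF4A, and are described at the end.

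Total RNA of 4 samples was hybridised to 1 array each. The 2 Gad1-negative samples, a and b, are the cells left after neurons had been sorted out by dsRed1, a red fluorescent protein that a 2.1 kb stretch of the Gad1 promoter drove directly; Gad1 encodes the enzyme that makes the transmitter GABA. The 2 Cha-negative samples, a and b, are the cells left after GFP-labelled cholinergic neurons had been sorted out of cultures aged 3 to 5 days. The labels give no culture age for the Gad1 sort and no driver for the GFP. Both groups are negative fractions, so no unsorted culture or positive fraction serves as a baseline here, and neither label says whether a and b were separate cultures. The p-values therefore reflect nothing beyond the spread among the 4 arrays. The comparison addressed here is whether translation factor transcripts differ between the cells left by the Gad1 sort and those left by the cholinergic sort.

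Translation begins when eIF2, loaded with GTP and initiator tRNA, joins eIF1, eIF5 and the large eIF3 scaffold on the small ribosomal subunit. The eIF4 group recognises the cap of the mRNA and unwinds its leader, eIF5B joins the large subunit, and eIF2B then recharges eIF2 with GTP. In elongation, eEF1A brings each aminoacyl-tRNA to the ribosome and the eEF1B subunits recharge it, while eEF2 moves the ribosome along. These factors act in every cell type, and growing and dividing cells make more of many of them. Several Drosophila factors also have extra gene copies, some of which serve mainly in the male germ line.

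Each value is an intensity on a linear scale, and the authors had scaled every array to a common trimmed mean of 500.1. Before log2, values under 44.9 were raised to that floor, which is their 20th percentile. The test used probe sets with a mean intensity of at least 132, the 40th percentile. Of these, 8384 were tested with limma, 37 of them members. Probes differ in affinity, so the intensity of 1 probe set says nothing of its level relative to another; sums and ratios over probe sets serve here only to compare samples. The median probe set read 213 and 181 in Gad1-negative a and b, against 248 and 219 in Cha-negative a and b. Of the 6 probe sets for neuron markers, 1 passed the filter, and they did not share a direction. That of the pan-neuronal gene elav read 67.2 and 909.3 in Gad1-negative a and b, against 165.2 and 335.0 in the Cha-negative samples. Under the filter, the synaptic vesicle gene nSyb read 126.7 and 296.1 against 32.4 and 34.3, while the active zone gene brp, in probe set 146885_at, read 10.3 and 53 against 135.9 and 71.6. In bulk samples such as these, fewer cells of a type and less RNA per cell cannot be told apart.

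No translation factor passed the test between the 2 negative fractions, but most of them leaned the same way. Of the 37 members tested, 31, or 83.8%, had a positive difference, that is, a higher mean log2 intensity in Gad1-negative, against 46.9% of all tested probe sets. With each array centred on its median, 31 members were again positive, against 59.6% of all. The median difference of the members was 0.35, a value that was -0.06 over all tested probe sets. The gap between the 2 samples of at least 1 group was larger than the difference between groups in 31 of the 37, 83.8%, close to the 77.8% of all tested probe sets. Without Gad1-negative b the number of positive members was 19, 51.4% against 50.3% of all tested probe sets, close to the background. Without Cha-negative a it was 22, 59.5% against 44.6% of all. Gad1-negative b also stood apart in the bacterial and phage hybridisation controls, whose geometric mean intensity was 4005 and 1550 in Gad1-negative a and b, against 4441 and 7164 in Cha-negative a and b. Their part in the lean was not tested.

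The groups did not overlap in 13 of the 37 members. Both Gad1-negative samples lay above both Cha-negative samples in 10 members, 27.0%, where 14.5% of all tested probe sets did so. They lay below in 3 members, 8.11%, against 20.7% of all tested probe sets. By limma with Benjamini-Hochberg adjustment over all 8384 probe sets, 0 members passed at 0.05, and 0.0% of all probe sets did. At an unadjusted p under 0.05 there were 0 members, against 5.03% of all probe sets. The members' limma adjusted p ran from 0.909 to 0.990. With 2 samples in each group, the smallest two-sided p that exact permutation allows is 0.333. The 95% intervals of the members, taken without adjustment, reached 1.20 to 3.37 to either side on the log2 scale. The smallest reach is a 2.30-fold change. After adjustment larger differences could be missed as well. In simulated data the test called 11.5% of probe sets changed 4-fold and 51.1% of those changed 8-fold.

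**Figure D1:**
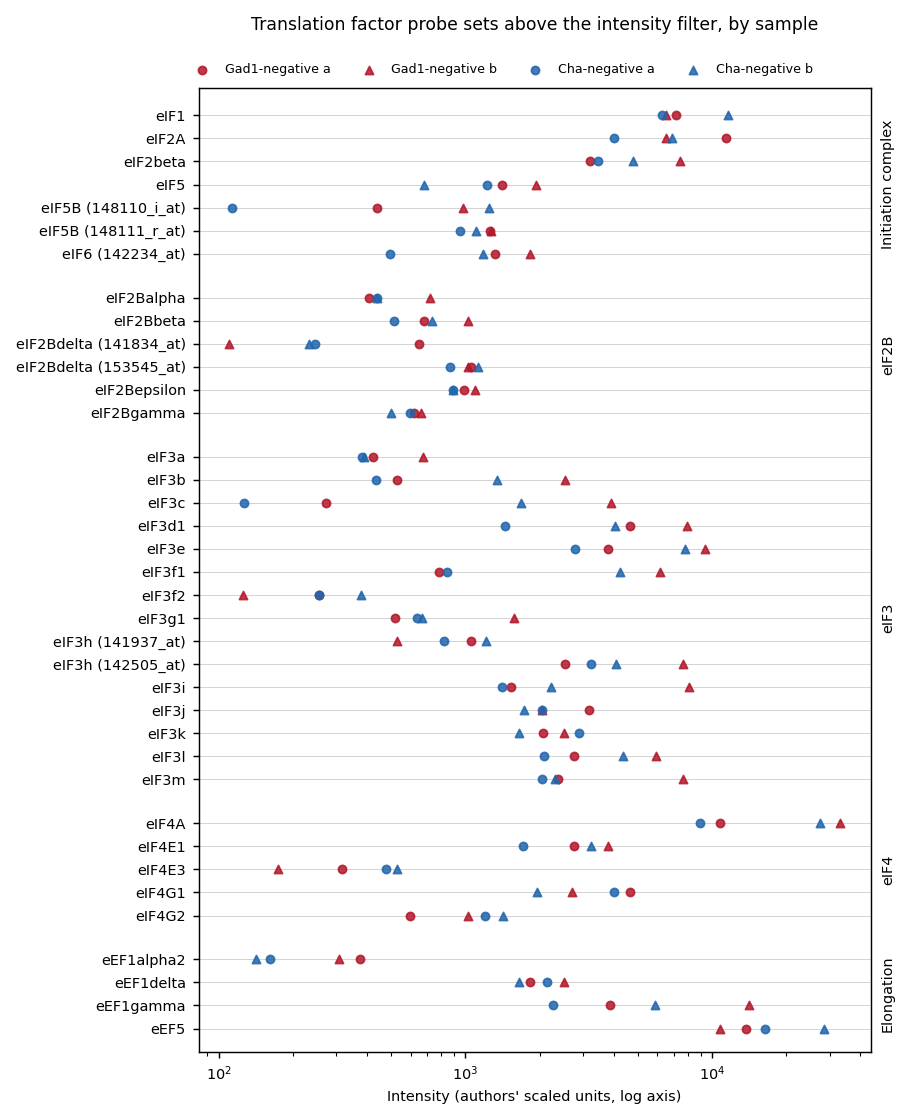
Intensity of the 37 translation factor probe sets above the filter in each of the 4 samples, on a log axis and grouped by role; a probe set name follows the symbol where a gene has more than 1. Red points are Gad1-negative and blue points Cha-negative, with circles for sample a and triangles for sample b, and in eIF3c, eIF3f1, eIF3b and eIF4A both triangles lie to the right of both circles.

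Among the initiation complex factors, with which eIF6 was listed, 3 probe sets stood higher in Gad1-negative without overlap. They were that of eIF5 and 1 each of eIF6 and eIF5B, and none passed the test. Of the 7 tested probe sets of this role, 6 had a positive difference, and the median was 0.71. Over all tested probe sets 46.9% had a positive difference, and 14.5% stood higher in Gad1-negative without overlap. The GTPase-activating factor eIF5, which makes eIF2 give up its GTP at the start codon, read 1405.1 and 1943 in Gad1-negative a and b, against 1219.2 and 678.7 in Cha-negative a and b. Both Gad1-negative samples were the higher ones, and the difference was 0.86 ± 0.57 (SE of the fit, 2 samples per group, as for every difference below). On the large subunit, eIF6 keeps the subunits apart until they are needed. Its brighter probe set read 1314.3 and 1823.8 in Gad1-negative, against 497 and 1176 in Cha-negative. Cha-negative a was the low sample, and the difference was 1.02 ± 0.62. The dimmer eIF6 probe set, 141854_at, lay under the filter and read 37.7 and 120.8 against 104.1 and 270.7, with overlapping groups and a negative difference of -1.19. The 2 eIF6 probe sets therefore disagree in direction, and the 1 below the filter had Gad1-negative a under the floor.

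For the remaining members of this role the groups mostly overlapped. For eIF2A, which can bring initiator tRNA to the ribosome by a route apart from eIF2, the readings were 11377.4 and 6505.8 in Gad1-negative and 4006.8 and 6891.6 in Cha-negative (0.71 ± 0.63). Gad1-negative a was the high sample and Gad1-negative b lay between the 2 Cha-negative samples. The beta subunit of eIF2 itself, eIF2beta, read 3215.6 and 7417 against 3441.4 and 4798.2 (0.27 ± 0.63). Here the 2 Gad1-negative samples bracketed the Cha-negative ones. The start codon fidelity factor eIF1 read 7142.5 and 6492.3 in Gad1-negative, against 6275.7 and 11673.4 in Cha-negative (-0.33 ± 0.61), and Cha-negative b alone was high.

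The GTPase of subunit joining, eIF5B, had 3 probe sets that behaved unlike each other. Probe set 148111_r_at read 1257.9 and 1266.9 in Gad1-negative, against 951.2 and 1102.4 in Cha-negative, close values without overlap (0.30 ± 0.52). Probe set 148110_i_at read 438.2 and 975 against 113 and 1246.1, an 11.0-fold gap between the 2 Cha-negative samples alone (0.80 ± 1.07). The third, 148112_at, lay under the filter at 51.1 and 75.4 against 121.2 and 74.6. Limma draws the spread of each probe set toward that of all, and the smallest SE among the members was 0.52.

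The exchange factor that recharges eIF2, eIF2B, has 5 subunits. The median size of the gap between samples of a group was 0.37 on the log2 scale in Gad1-negative and 0.17 in Cha-negative. The gap was far wider in eIF2Bdelta probe set 141834_at, at -2.56 in Gad1-negative. In 5 of the 6 probe sets a gap within a group exceeded the difference between groups. All 6 passed the filter and had a positive difference, from 0.07 to 0.43, with a median of 0.23. Of all tested probe sets 46.9% had a positive difference. The catalytic subunit eIF2Bepsilon read 989.9 and 1099.9 in Gad1-negative and 894.1 and 890.4 in Cha-negative. These groups did not overlap, yet the difference was 0.23 ± 0.52. Its partner eIF2Bgamma read 617 and 661.9 against 594.2 and 501.4, again without overlap (0.23 ± 0.53).

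The regulatory subunits of eIF2B showed overlapping groups. Readings of eIF2Balpha were 407.9 and 721.9 in Gad1-negative and 437 and 440.1 in Cha-negative (0.31 ± 0.57), with Gad1-negative b the high sample. Those of eIF2Bbeta were 677.2 and 1024.1 against 516.1 and 735.9 (0.43 ± 0.56). For eIF2Bdelta the 2 probe sets differed in their steadiness. Probe set 153545_at read 1050.4 and 1028.3 against 864.6 and 1126.5 (0.07 ± 0.53). Probe set 141834_at read 650.3 and 110.2 against 246.9 and 231.4 (0.16 ± 0.90), so that the 2 Gad1-negative samples lay on either side of Cha-negative.

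The eIF3 subunits leaned to Gad1-negative, and none passed the test. The eIF3 scaffold holds the initiator complex on the small subunit and has 16 listed genes, all with a probe set, of which 14 genes with 15 probe sets passed the filter. Of the 15, 13 had a positive difference (median over the 15, 0.45), and 4 had both Gad1-negative samples above both Cha-negative samples. Over all tested probe sets these shares were 46.9% and 14.5%. In each of the 15 the gap within at least 1 group exceeded the difference between groups, as it did in most probe sets of the array. Without Gad1-negative b, 9 of the 13 positive eIF3 probe sets turned negative and the median was -0.21. Without Cha-negative a, 5 of them turned negative and the median was 0.11.

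Of the eIF3 subunits, eIF3d1 had the largest difference on all 4 samples as scaled by the authors. Known in mammals to contact the cap of some mRNAs, eIF3d1 read 4675 and 7906.1 in Gad1-negative, against 1443.6 and 4064.6 in Cha-negative. The groups were apart, 2.51-fold on average, although Cha-negative a stood well below Cha-negative b. The difference was 1.33 ± 0.68 with a 95% interval from -0.26 to 2.91. Leaving out Cha-negative a lowered it to 0.58, and leaving out Cha-negative b raised it to 2.07. The subunit eIF3m read 2379.1 and 7662.2 against 2041.5 and 2317 (0.97 ± 0.68), and eIF3i, of the module that reaches toward the mRNA entry side, read 1529.2 and 8096 against 1412.5 and 2218.3 (0.99 ± 0.82). In both, Gad1-negative b alone was high. The largest subunit, eIF3a, read 421 and 674.1 against 382.6 and 389 (0.47 ± 0.57), and the loosely attached eIF3j read 3186.2 and 2055 against 2042.6 and 1728.8 (0.45 ± 0.55). For eIF3a and eIF3j the groups did not overlap, but 1 Gad1-negative sample lay close to Cha-negative in each.

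In 8 of the 15 eIF3 probe sets both b samples lay above both a samples. In 5 of them sample b was over 2-fold above sample a in each group. Over all tested probe sets these shares were 18.5% and 4.89%. Of the scaffold's inner core, eIF3c read 273.2 and 3896.1 in Gad1-negative a and b, against 126.8 and 1689.9 in Cha-negative a and b. Sample b was 14.3-fold above sample a in Gad1-negative and 13.3-fold above it in Cha-negative, while the difference between groups was 1.16 ± 1.45. The RNA-contacting subunit eIF3b read 527.2 and 2528.3 against 433.3 and 1350.4 (0.59 ± 0.88). Readings of eIF3f1 were 782.5 and 6147 against 840.4 and 4231.8 (0.22 ± 1.09). The same order held in eIF3e, at 3788.3 and 9361.5 against 2791.2 and 7750.3, and in eIF3l, at 2766.1 and 5916.5 against 2094.4 and 4341.1. For all 5 subunits the 2 groups interleave.

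In the other eIF3 probe sets that order was weaker or absent. It held in eIF3i, given above, in eIF3g1 and in the brighter eIF3h probe set, where the gap within Cha-negative was under 2-fold. For eIF3g1 the readings were 519 and 1569.9 in Gad1-negative and 637.9 and 665.4 in Cha-negative, and for the brighter probe set of eIF3h they were 2549.1 and 7659.2 against 3242.5 and 4080.6. In both, Gad1-negative b stood far above the other samples. The dimmer eIF3h probe set, 141937_at, went the other way, at 1055.5 and 526.8 against 818.4 and 1212 (-0.42 ± 0.59). The subunit eIF3k stayed within a narrower range, at 2067.4 and 2525 against 2886.2 and 1647.4 (0.07 ± 0.57). The extra copy eIF3f2 read 256 and 125.7 against 255 and 378 (-0.79 ± 0.70), with Gad1-negative b low.

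**Figure D2:**
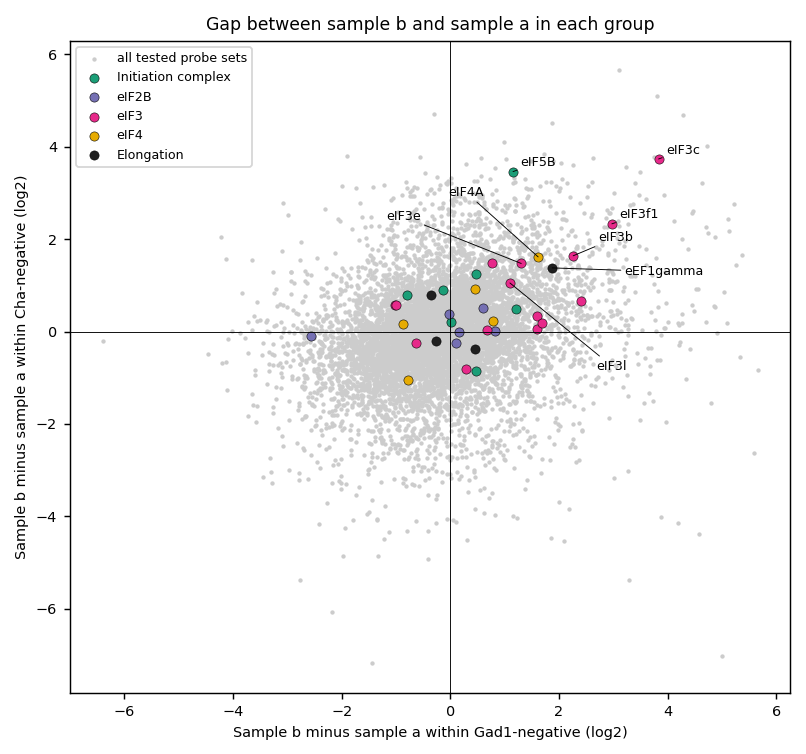
Log2 gap of sample b minus sample a within Gad1-negative (horizontal) and within Cha-negative (vertical) for the 37 translation factor probe sets, coloured by role, over all 8384 tested probe sets in grey. In the 8 labelled members sample b was more than 2-fold above sample a in both groups, with eIF3c farthest out.

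This order by sample extended beyond eIF3. Sample b exceeded sample a by over 2-fold in both groups in 8 members, 21.6% of the 37, where 4.89% of all tested probe sets did so; no member was lower by that much in both. The 8 are eIF3b, eIF3c, eIF3e, eIF3f1, eIF3l, eIF4A, eEF1gamma and the eIF5B probe set 148110_i_at, and they were picked out after their values were seen. Both b samples lay above both a samples in 15 members, 40.5%, against 18.5% of all tested probe sets. At any size of gap, sample b was above sample a in both groups in 21 members, 56.8%, against 27.1% of all tested probe sets. Across the 37 members, which share the same 4 arrays and are not independent, the 2 gaps had a Pearson's r of 0.58, against 0.26 across all tested probe sets. The letters a and b are names of samples in the labels, which do not say that samples of the same letter share a culture, day or array batch. The median intensity of the 37 members was 1314 and 2510 in Gad1-negative a and b, against 1202 and 1647 in Cha-negative a and b.

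In the eIF4 group 4 of the 5 tested probe sets differed between fractions by less than the gap within at least 1 of the groups. The exception was eIF4E3. This paralog and the paralog eIF4G2 stood lower in Gad1-negative. Of 11 probe sets, 5 passed the filter. The RNA helicase eIF4A read 10817.1 and 33167.1 in Gad1-negative, against 8941.1 and 27406.5 in Cha-negative. Sample b was 3.07-fold above sample a in both groups, and the difference between groups was 0.28 ± 0.85. The cap-binding protein eIF4E1 read 2770.1 and 3778.6 against 1721.7 and 3243.8 (0.45 ± 0.59), with Cha-negative a the lowest. The scaffold eIF4G1, which joins eIF4E and eIF4A, read 4652.4 and 2710.7 against 4008.2 and 1946.2 (0.35 ± 0.62). In eIF4G1 sample a was the higher one of both groups, the reverse of eIF4A.

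The 2 paralogs were below in both Gad1-negative samples. In Drosophila both eIF4E3 and eIF4G2 are known for their part in spermatogenesis. Readings of eIF4E3 were 315.4 and 173.2 in Gad1-negative, against 476.3 and 529.2 in Cha-negative, a difference of -1.10 ± 0.61 with a 95% interval from -2.51 to 0.31. Readings of eIF4G2 were 597.6 and 1023.4 against 1202.2 and 1416.4 (-0.74 ± 0.56). In neither gene did the groups overlap, and neither difference passed the test (limma adjusted p = 0.909 for eIF4E3 and 0.914 for eIF4G2). Of 5 listed germ line markers 4 had a probe set, and their summed intensity was 3183 and 2204 in Gad1-negative against 2877 and 3287 in Cha-negative, which overlaps. Of their 4 tested probe sets 3 had a negative difference, 2 of them without overlap. These 2 were nanos in probe set 151690_at, at 1298.5 and 135.9 against 1657.5 and 1375.2, and the Piwi-pathway gene piwi, at 204.3 and 126.5 against 239.2 and 339.5. The third, another nanos probe set, overlapped. The fourth, of the germ plasm gene tud, went the other way without overlap, at 1076.8 and 1684 against 533 and 953.2. The part of germ line cells in these readings was not tested.

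The 7 genes with no probe set above the filter are all extra copies of other factors in this family. Readings of eIF4E4 were under the floor in both Gad1-negative samples, at 16.7 and 8.4, against 151.7 and 62.9 in Cha-negative, so that Cha-negative was at least 2.18-fold higher. Its relative eIF4E6 read 164.2 and 50.5 against 145.8 and 111.3, and eIF4E5 read 41.4 and 54.4 against 9.1 and 49.5, both with overlap. For eIF4E7 the brighter probe set read 94.1 and 4.8 against 139.4 and 76.9, and the dimmer one read 59.3 and 5.3 against 15.8 and 10.5. Gad1-negative b was the lowest sample of both. The eIF3d1 copy eIF3d2 read 60.1 and 44.7 against 24.7 and 12, while eIF3g2 and eIF4H2 lay under the floor in all 4 samples. Since these probe sets lay under the filter, no test was made of them.

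Of the 4 elongation factors measured, eEF1alpha2 had the most even separation, and none passed the test. It is 1 of 2 Drosophila genes for eEF1A. Its probe set read 372.8 and 308.8 in Gad1-negative, against 161.6 and 141.1 in Cha-negative. Samples of the same group were close and the groups were 2.25-fold apart. The difference was 1.17 ± 0.66 (limma adjusted p = 0.909), and its 95% interval spanned -0.35 to 2.69. With 1 sample left out in turn it stayed between 1.03 and 1.30, which with 2 samples per group restates how close they were. The Cha-negative readings lay near the filter of 132, and the probe set was not tested under the higher filter given at the end.

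The other elongation factors went in both directions. The eEF1B subunit eEF1gamma read 3866.4 and 14184.8 in Gad1-negative, against 2272.4 and 5904.2 in Cha-negative (1.02 ± 0.81). Both b samples were high, and without Gad1-negative b the difference was 0.08. The exchange subunit eEF1delta read 1830.4 and 2510.2 against 2138.8 and 1649.1 (0.19 ± 0.54), with overlap. Long known as eIF5A, eEF5 carries the modified residue hypusine and helps ribosomes past stalling sequences. It read 13776.5 and 10821.3 in Gad1-negative, against 16477.8 and 28421.7 in Cha-negative (-0.83 ± 0.65), so both Gad1-negative samples were the lower ones. The factors eEF1alpha1, eEF1beta and eEF2, as well as eIF1A, eIF2alpha, eIF2gamma, eIF2D, eIF4B, eIF4EHP and eIF4H1, were not analysed here.

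**Figure D3:**
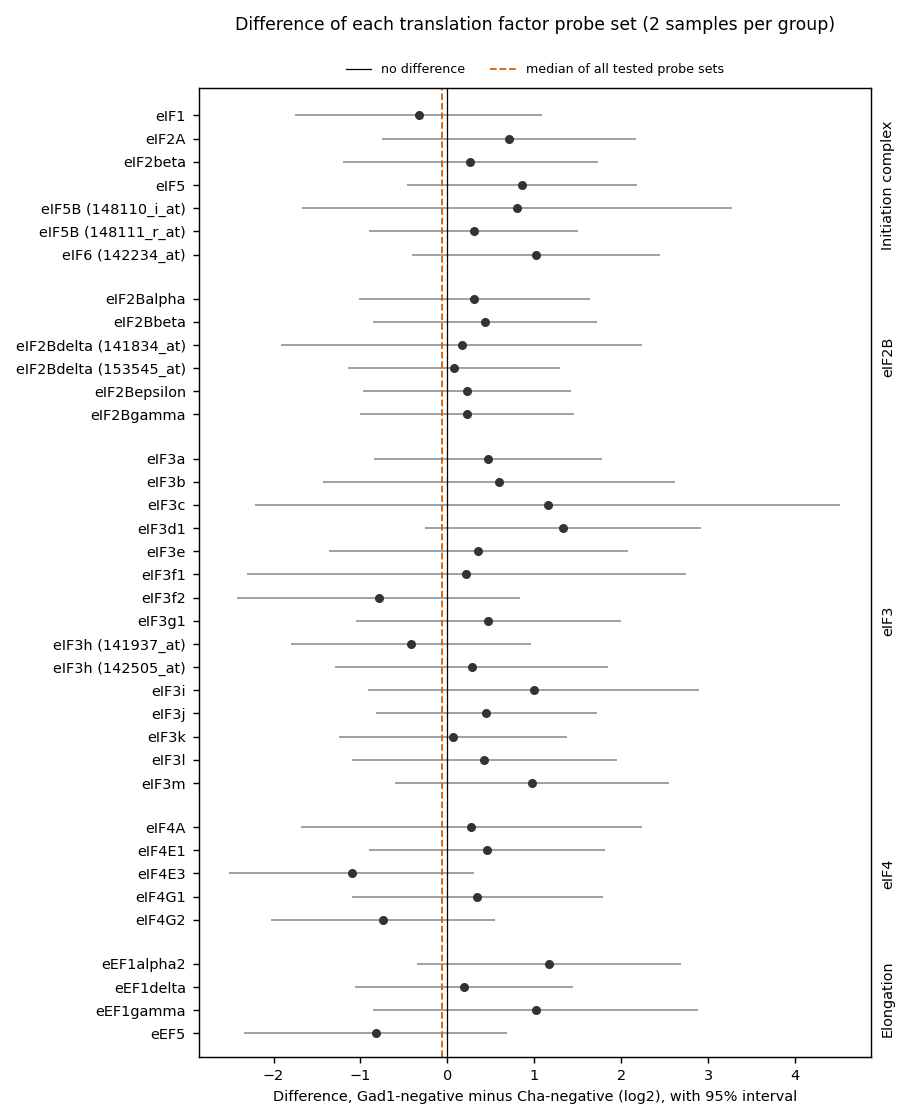
Difference of each of the 37 tested translation factor probe sets as log2 of Gad1-negative minus log2 of Cha-negative, drawn with limma's 95% interval (2 samples per group). Every interval includes 0, and 31 of the 37 points lie to the right of it, while the dashed line marks the median of all 8384 tested probe sets at -0.06.

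Of the summed markers of other cell types, those of neuroblasts alone were apart between the groups. The largest single differences among the tested markers were in muscle probe sets, in both directions. The neuroblast markers, of dividing neural stem cells, had a summed intensity of 7587 and 3790 in Gad1-negative a and b, against 3482 and 2408 in Cha-negative, and 5 of their 6 tested probe sets had a positive difference. The separation of the sums rests on 1 probe set of mira, 142533_at, at 4094.3 and 1825.9 against 1102.9 and 1107.9. Without it the sums overlapped, at 3493 and 1964 against 2379 and 1300, and the other mira probe set had a negative difference of -0.63. Of the 6 tested muscle probe sets 4 had a positive difference, against 46.9% of all tested probe sets. In 3 of the 6 both Gad1-negative samples lay above both Cha-negative samples, against 14.5% of all. Among these, Prm read 377.6 and 797.2 against 73.3 and 52.2, and Mlc2 read 4097.6 and 7432.4 against 2043.9 and 1115.7. The troponin T gene up went the other way in probe set 151619_at, at 54 and 19 against 2244.1 and 127.6. Prm, Mlc2 and this probe set had an unadjusted limma p under 0.05, and none passed the adjusted test. Muscle sums were 5867 and 10253 against 6332 and 2168. Their overlap rests on Cha-negative a, where this probe set of up read 2244.1. Haemocyte, glial and fat body sums overlapped between the groups as well. Neither neuroblast nor muscle sums followed the order of sample b above sample a in both groups: the neuroblast sum was higher in sample a of both. Among the marker sums that of neurons alone followed it, at 258 and 1318 in Gad1-negative a and b against 422 and 558. Within Cha-negative this rests on elav, the 1 neuron probe set above the filter, at 165.2 and 335.0 in a and b. The glial sum did not follow the order of sample b above sample a. Of the 6 glial probe sets 1 did, that of moody, at 145.4 and 382.6 against 138 and 487.7. In 2 others sample b was lower in both groups: repo, at 473 and 180.1 against 512.6 and 473.1, and alrm, at 164.4 and 141.6 against 408.6 and 201.6. The part of these cell types in the members' values was not tested.

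Release, rescue and control genes outside the family showed no common direction, and none of them passed the test. Of 7 tested probe sets for termination, rescue and recycling, 4 had a positive difference; the median over the 7 was 0.27. The stop codon reader eRF1 read 2490.6 and 4664.1 in Gad1-negative, against 6582.5 and 7518.8 in Cha-negative (-1.05 ± 0.60), with both Gad1-negative samples lower. For HBS1, a rescue factor of stalled ribosomes, probe set 141899_at read 180.9 and 109.6 against 462.7 and 220.3 (-1.18 ± 0.74). Probe set 142364_at read 1162.8 and 1331.7 against 341.4 and 1753 (0.69 ± 0.79). The 2 HBS1 probe sets thus disagree. The reinitiation factor MCTS1 read 1814.5 and 1689.5 against 1376.1 and 1138 (0.48 ± 0.52), close values without overlap.

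Of 20 tested probe sets of translational control genes, 11 had a positive difference; the median over the 20 was 0.18. The kinase Lk6, which phosphorylates eIF4E, read 3081.4 and 4359.4 in Gad1-negative, against 1043.9 and 2186.9 in Cha-negative, without overlap (1.28 ± 0.60). Its second probe set, 151687_s_at, overlapped widely, at 32.1 and 868.6 against 58.9 and 235.8 (0.74 ± 1.43). The DEAD-box helicase bel read 288.3 and 825.9 against 65.6 and 379 (1.63 ± 0.96), a difference that was 0.36 without Cha-negative a. For pAbp, the poly(A)-binding protein that eIF4G1 holds, probe set 154253_at read 2048.8 and 17595.1 against 148.7 and 7495 (2.51 ± 1.72). Both bel and this pAbp probe set were higher in sample b of each group, as those 5 eIF3 subunits were. The second pAbp probe set, 151215_at, did not share that order, at 27331.9 and 21851 against 6619.5 and 32721.2.

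Factors of mitochondrial translation and 2 near relatives of the family were measured beside it. Of 8 mitochondrial genes, 3 passed the filter and all 3 had a positive difference. The mitochondrial elongation factor mEFTs read 479.9 and 444.9 in Gad1-negative, against 268.4 and 362.1 in Cha-negative (0.57 ± 0.57), and mEFTu2 read 1324.1 and 1414.9 against 1282.8 and 1257.1 (0.11 ± 0.52). Both were free of overlap by small margins, while mEFTu1 overlapped widely, at 123.6 and 594.6 against 401.8 and 80.6. The eIF4A relative CG7483, also called eIF4AIII, which marks spliced junctions, read 1478 and 2484.2 against 873.6 and 1615.6 (0.69 ± 0.59). The selenocysteine factor eEFSec, whose name carries no digit, lay under the filter.

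The array controls along the eIF-4a transcript gave a second measure of eIF4A and of RNA quality. The control at the 3' end read 14223.6 and 33433.6 in Gad1-negative a and b, against 14404.4 and 41999.1 in Cha-negative a and b. Like the eIF4A probe set itself it was high in both b samples and overlapped between the groups. Their ratio, control over probe set, was 1.31 and 1.01 in Gad1-negative and 1.61 and 1.53 in Cha-negative. The control in the middle read 4306.4 and 17551.1 against 3167.3 and 7421.3, and the control at the 5' end read 61.9 and 433.6 against 9.7 and 38.1. Both Cha-negative samples were under the floor at the 5' end.

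The middle control amounted to 30.3% and 52.5% of the 3' control in Gad1-negative, against 22.0% and 17.7% in Cha-negative. This share was therefore higher in both Gad1-negative samples, the side to which most members leaned. It was also highest in Gad1-negative b for GAPDH, at 27.1% and 48.7% against 27.1% and 22.6%, and for actin, at 20.9% and 39.3% against 17.9% and 17.4%. For 18S ribosomal RNA it was not, at 74.5% and 29.4% against 17.97% and 29.8%. The part of transcript intactness in the members' differences was not tested. The middle share did not follow the letters, being the lower of its group in Cha-negative b for eIF-4a, GAPDH and actin. The ratio of the 3' to the 5' control was higher in sample b of both groups for GAPDH and actin. For GAPDH it was 23.86 and 38.04 against 144.11 and 185.25, with the 5' control of Cha-negative a under the floor. For actin it was 82.05 and 106.47 against 59.42 and 124.47. For eIF-4a and 18S ribosomal RNA this order did not hold. Its part in the order by sample was not tested.

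**Figure D4:**
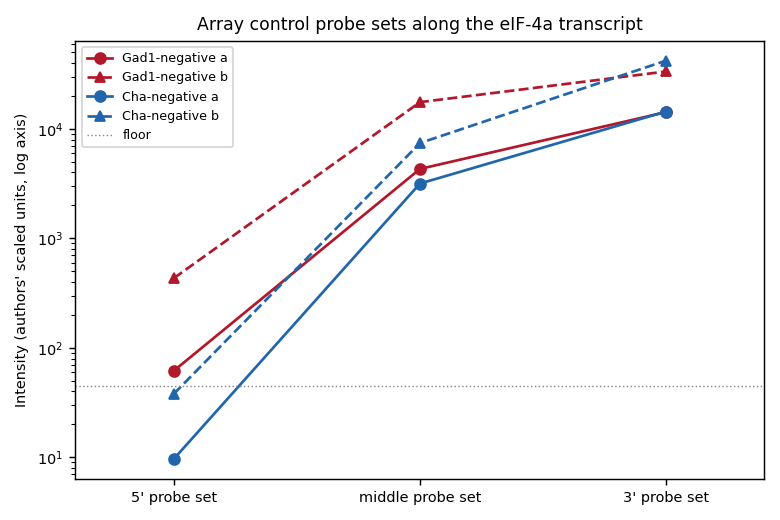
Intensity of the 3 array control probe sets along the eIF-4a transcript, on a log axis, with Gad1-negative in red and Cha-negative in blue, sample a as circles with solid lines and sample b as triangles with dashed lines. At the 3' end the samples pair by letter, whereas at the 5' end both Cha-negative samples lie under the floor of 44.9 (dotted line).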

How the data were processed

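Intensity values for 4 samples were taken from the deposited table; the authors had scaled each array to an equal trimmed mean, as the values show, and their software is not given in the sources used here. The 4 columns were matched by sample identifier. Of 14010 probe sets 44 were array controls, 12443 named 1 gene, 327 several and 1196 others none. All 47 members matched RefSeq by Entrez identifier, with 0 symbols changed. Coordinates are left out, since the sources used here name no build for the probes.

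Limma 3.58.1 in R 4.3.3 (lmFit, then two-sided eBayes with trend on 2 residual degrees of freedom) was fitted on log2 intensity of all probe sets other than controls above the filter, with Benjamini-Hochberg adjustment over the whole table. Each probe set was fitted because the rule picks probe sets. Differences are Gad1-negative minus Cha-negative. Tables were made in Python 3.11.15 (numpy 2.4.6, pandas 2.3.3) and figures with matplotlib 3.10.9. The fit was tested on simulated data with 200 of 8384 probe sets changed, in 20 simulations. It called 0.6% of those changed 2-fold, 11.5% at 4-fold, 51.1% at 8-fold and 78.4% at 16-fold. A mean of 7.25 unchanged probe sets was called as well. Noise was drawn from a normal distribution, independently for each sample, with the spread that limma had fitted to each probe set.

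The members and lists were chosen with earlier results of these data known. The rule for named genes covers the initiation, eIF4 and elongation roles, the largest differences, genes with several probe sets, the eIF-4a controls, and up to 3 tested probe sets of each other list with the smallest p; other genes were chosen after their values were seen. The alternatives are given at the end.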

Additional observations from a re-analysis of the deposited data

How the results depend on the processing

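The results were recomputed with cyclic loess, median centring or quantile normalization, other floors or an offset, other filters, 1 probe set per gene, other variance models, an adjusted p under 0.10, the replicate letter as a block and leaving out each sample; 0 members passed in any of them. Among all probe sets limma called 0, except 3 without Cha-negative a (Mtk, Uhg1 and 1 with no gene name) and 3 without Cha-negative b (CG5968 and 2 with no gene name), a range of 0 to 3 with 1 sample left out. With the replicate block 0 probe sets were called, 759 had an unadjusted p under 0.05, and 2 of these were members; same-lettered samples deviated together with r = 0.26 over all tested probe sets. The labels do not pair the letters, so the block stayed out of the test. The members' median was 0.34 after quantile normalization, 0.59 with median centring and 0.35 after loess, and ran from 0.08 to 0.73 with 1 sample left out. The count of positive members, an alternative added after seeing the data, was 30 or 31 of 37 under the settings on all 4 samples that kept 37 members. It was 29 of 34 with the higher filter or 1 probe set per gene, 34 of 47 with no filter, and 19 to 30 of 37 with 1 sample left out. By quantile normalization and loess the difference of eEF1alpha2 (1.40 and 1.45) exceeded that of eIF3d1 (1.25 and 1.25). With median centring 59.6% of all probe sets had a positive difference, and their median was 0.19.

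Single members were less steady: 17 of 37 kept their sign in every alternative run, and 20 changed sign without 1 sample. By quantile normalization and loess eIF3k also turned, to -0.072 and -0.016. With 1 sample left out, the differences of eIF3 ran from -0.54 to 1.72 for eIF3b, -0.76 to 3.07 for eIF3c, -0.38 to 1.09 for eIF3e, -1.27 to 1.70 for eIF3f1, -0.33 to 1.27 for eIF3g1, -0.51 to 1.07 for eIF3h (142505_at), -0.92 to 0.084 for eIF3h (141937_at), -0.21 to 2.19 for eIF3i, -0.34 to 0.47 for eIF3k and -0.12 to 0.97 for eIF3l. Among eIF2B they ran from -0.10 to 0.72 for eIF2Balpha, -1.12 to 1.44 for eIF2Bdelta (141834_at) and -0.12 to 0.27 for eIF2Bdelta (153545_at). The ranges were -0.53 to 1.08 for eIF4A, -0.0038 to 0.91 for eIF4E1, -0.17 to 0.87 for eIF4G1, -0.037 to 0.42 for eEF1delta, -0.78 to 0.12 for eIF1, -0.34 to 0.87 for eIF2beta and -0.93 to 2.53 for eIF5B (148110_i_at). Outside the family they were -0.57 to 1.75 for mEFTu1 and -0.32 to 5.34 for pAbp (154253_at). The cause was not tested beyond the samples named. Signal over background limits the probe sets near the floor, of which 10 members lay under the filter.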
